A study of Mus musculus with 4 samples.

Results

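The genes described are the lysosomal cathepsins and the proton pump that acidifies lysosomes, with the pump's accessory proteins and the main lysosomal membrane glycoproteins. They were chosen by symbol from the deposited gene list, with no measured value in the rule: cathepsins A, B, C, D, H, K, L, O, S and Z (Ctsa to Ctsz), every V0 subunit (Atp6v0) and V1 subunit (Atp6v1) of the vacuolar ATPase, every accessory protein (Atp6ap), Lamp1 and Lamp2. This gave 35 of 18695 genes, namely 10 cathepsins, 9 V0 and 11 V1 subunits, 3 accessory proteins and 2 Lamp genes.

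Bone marrow cells were profiled by droplet single-cell RNA sequencing to ask how loss of Tet2, an enzyme that oxidises methylated cytosine in DNA, acts along myeloid differentiation. The Tet2 KO group carried Mx1-Cre and Tet2 fl/fl, and the WT group was Tet2 fl/fl littermates without Mx1-Cre. All mice were young adults and received 4 doses of pI:pC, a double-stranded RNA mimic, at 12.5 ug per g of body weight, so the WT cells had also been exposed to this interferon inducer. The Mx1 promoter responds to interferon and is not restricted to a lineage, and both lines came from The Jackson Laboratory. Of each genotype, 2 sorts were sequenced: granulocyte-monocyte progenitors (GMP; Lin- cKit+ Sca1- CD34+ CD16/32+), and Lin- progenitors together with CD11b+ myeloid cells (the Lin-/CD11b+ sort).

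The 4 libraries held 1258 cells (WT GMP), 2719 cells (Tet2 KO GMP), 1924 cells (WT Lin-/CD11b+) and 3068 cells (Tet2 KO Lin-/CD11b+), with 22890469, 42561110, 22681380 and 34024599 UMIs. The median cell had 18713, 15488, 11092 and 10417 UMIs in the same order. Any pair of libraries shared 4 to 8 cell barcodes. Both sorts of a genotype came from 1 mouse, so genotype cannot be told apart from mouse or preparation, and the sorts are not independent of each other. With 1 library per genotype and sort no difference was tested, and every interval given is a 95% interval for counting error only: exact Poisson for counts per 1000000 UMIs (CPM) and exact conditional binomial for ratios of CPM. Tet2 itself was at 13.02 CPM (WT GMP), 17.0 CPM (Tet2 KO GMP), 13.4 CPM (WT Lin-/CD11b+) and 20.7 CPM (Tet2 KO Lin-/CD11b+), but UMIs count the 3′ end of a transcript, outside the deleted part, and do not check the genotype. The female transcript Xist was at 1029 to 1309 CPM in all libraries and the Y-linked Kdm5d at 0 to 2 UMIs, so the libraries did not differ in sex, which bears on the X-linked members Atp6ap1, Atp6ap2 and Lamp2.

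Lysosomes degrade proteins taken up from outside or delivered by autophagy. The vacuolar ATPase pumps protons through its membrane sector V0, driven by ATP hydrolysis in the cytosolic sector V1, and most cathepsins are proteases that mature and act in the acid this creates. In myeloid cells cathepsin C activates the serine proteases of neutrophil granules, and cathepsin S trims the invariant chain from MHC class II in antigen-presenting cells.

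Cells were placed in types by the share of their UMIs from marker genes, none of them a member. The gate found HSPC-like cells (early progenitors), mono-biased and neutro-biased GMP-like, monocyte-like, neutrophil-like, plasmacytoid-like, basophil-like and plasma-like cells with at least 50 cells in each library compared. For monocyte-like and neutrophil-like cells the marker lists do not test the names, because the gate used them. It used every neutrophil marker and, of the monocyte markers, Fn1, S100a4, Lyz2 and Vcan. Monocyte markers summed to 19453 CPM in WT monocyte-like cells, with Lyz2 as the most abundant and 0 of 8 at 0. Neutrophil markers summed to 460550 CPM in WT neutrophil-like cells, with S100a8 as the most abundant and 0 of 9 at 0. The HSPC-like name was unclear in the GMP sort, where HSPC markers were at 530 CPM in WT and 477 CPM in Tet2 KO. GMP markers in the same cells were at 11115 and 13671 CPM. HSPC markers were still above the 108 CPM of WT mono-biased cells of that sort, which follows from the gate on most of these markers. The gated types are ranges along a continuum, with 1150 of 8969 cells (12.82%) near a limit of the gate. HSPC-like cells of the GMP sort lay near a limit most often, 54 of 138 in WT and 71 of 123 in Tet2 KO. Of all cells 19.44% fell in no type, and part of them are among those near a limit. These include GMP-like cells without either bias, 154 cells (12.2%) of the WT GMP and 724 cells (26.6%) of the Tet2 KO GMP library. In the Lin-/CD11b+ sort such cells numbered 79 (4.11%) in WT and 241 (7.86%) in Tet2 KO. They are left out of the comparisons of mono-biased and neutro-biased cells.

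Together the members took 0.263% of UMIs in the WT GMP library, 0.275% in Tet2 KO GMP, 0.280% in WT Lin-/CD11b+ and 0.319% in Tet2 KO Lin-/CD11b+. Because each UMI stands for 1 transcript whatever its length, CPM can be compared between genes. Over all WT cells the pump subunit Atp6v0e, a small V0 protein, was the most abundant member at 316 CPM, followed by the carboxypeptidase cathepsin Z at 269.9 CPM (Ctsz). Next came the V1 subunit F at 248 CPM (Atp6v1f), the proteolipid c″ at 216 CPM (Atp6v0b), the peripheral stalk subunit G at 215 CPM (Atp6v1g1) and the cysteine protease cathepsin B at 154 CPM (Ctsb). Pump subunits held 4 of the 6 highest places, near their share of the members (20 of 35).

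At the other end, 7 members were close to absent. Atp6v0a4, Atp6v0e2 and Atp6v1c2 had 0 UMIs in WT cells, which allows up to 0.131 CPM in the GMP and 0.132 CPM in the Lin-/CD11b+ library. Ctsk, known from osteoclasts, and Atp6v0d2 had 3 UMIs each over both WT libraries, and Atp6v1g3 and Atp6ap1l 1 UMI each. For all 7 the Tet2 KO libraries had at most 2 UMIs, so no fold is given. For the subunits d, C, G and e the marrow cells held mainly 1 isoform. Atp6v0d1 (77.6 CPM over WT cells) stood against Atp6v0d2 (0.0658 CPM), Atp6v1c1 (36.8 CPM) against Atp6v1c2, Atp6v1g1 against Atp6v1g2 (2.02 CPM) and Atp6v0e against Atp6v0e2. Subunits B and E were read through Atp6v1b2 (50.1 CPM) and Atp6v1e1 (136 CPM), subunit H through Atp6v1h (24.3 CPM), and Atp6v1b1 was not analysed here. The proteolipid subunit c was low at 6.28 CPM (Atp6v0c), a level that is uncertain because the mouse genome holds near-identical processed copies of this gene.

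Among isoforms of the large membrane subunit a, which sets where the pump goes, a1 and a2 were at 8.12 CPM (Atp6v0a1) and 9.26 CPM (Atp6v0a2) over WT cells. Atp6v0a1 was a basophil-like transcript: 42.4 CPM (30.4 to 57.5) in WT basophil-like cells of the GMP sort and 88.3 CPM (62.5 to 121) in those of the Lin-/CD11b+ sort. The next type was plasma-like at 20.9 CPM, and all others in WT stood at 3.05 to 8.90 CPM with overlapping intervals. The same order was seen in the Tet2 KO mouse, at 42.6 and 56.1 CPM in basophil-like and 24.9 CPM in plasma-like cells. Of the UMIs outside immunoglobulin genes, however, plasma-like cells had 65.0 CPM in WT and 63.8 CPM in Tet2 KO, with intervals that overlap those of basophil-like cells of that sort. The isoform a3, Tcirg1, known from osteoclasts and from secretory lysosomes, belongs to the related genes rather than to the members. It was the most abundant a isoform in monocyte-like cells, at 56.9 CPM in WT, and low in WT basophil-like cells at 6.97 CPM.

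Across cell types of the WT Lin-/CD11b+ library the members summed to 4992 CPM (4907 to 5078) in monocyte-like cells and 3652 CPM (3562 to 3745) in plasmacytoid-like cells. Mono-biased GMP-like cells followed at 3032 CPM (2982 to 3083). Basophil-like cells at 2537 CPM (2388 to 2692), neutro-biased GMP-like cells at 2449 CPM (2389 to 2510) and neutrophil-like cells at 2419 CPM (2340.2 to 2501) did not differ beyond counting error. HSPC-like cells were lower at 1765 CPM (1715 to 1817), and plasma-like cells lowest at 1179 CPM (1138 to 1222). That last place depends on the total used, since immunoglobulin genes (188 genes) took 67.8% of UMIs in WT and 61.0% in Tet2 KO plasma-like cells, and at most 0.269% in the other types ranked here. Outside these genes the sum in plasma-like cells was 3668 CPM in WT (3539 to 3801), level with plasmacytoid-like cells at 3658 CPM, and 4246 CPM in Tet2 KO (4117 to 4378). The place of neutrophil-like cells depends on the total as well, since the neutrophil markers given above took a large share of their UMIs. The median of all genes in them was -0.99 on log2 over HSPC-like cells in WT. Their member sum outside the neutrophil markers was not computed. All further CPM of plasma-like and neutrophil-like cells are of all UMIs unless said otherwise. In the WT GMP library the sum was 3006 CPM in mono-biased, 2464 CPM in neutro-biased, 2484 CPM in basophil-like and 2088 CPM in HSPC-like cells, so mono-biased cells were highest in both sorts of progenitors.

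Cathepsins and pump subunits both varied between types. The cathepsin sum ran from 479 CPM in HSPC-like cells of the WT Lin-/CD11b+ library to 2289 CPM in monocyte-like and 1725 CPM in plasmacytoid-like cells. The V0 and V1 subunits together lay between 1087 CPM in HSPC-like and 2179 CPM in monocyte-like cells, with plasma-like cells lower at 513 CPM. Neutro-biased GMP-like cells (1473 CPM), neutrophil-like cells (1519 CPM), basophil-like cells (1579.5 CPM), mono-biased GMP-like cells (1591 CPM) and plasmacytoid-like cells (1635 CPM) were close together. In these 5 types the cathepsins differed more, at 589, 629, 571, 1092 and 1725 CPM in the same order.

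**Figure D1:**
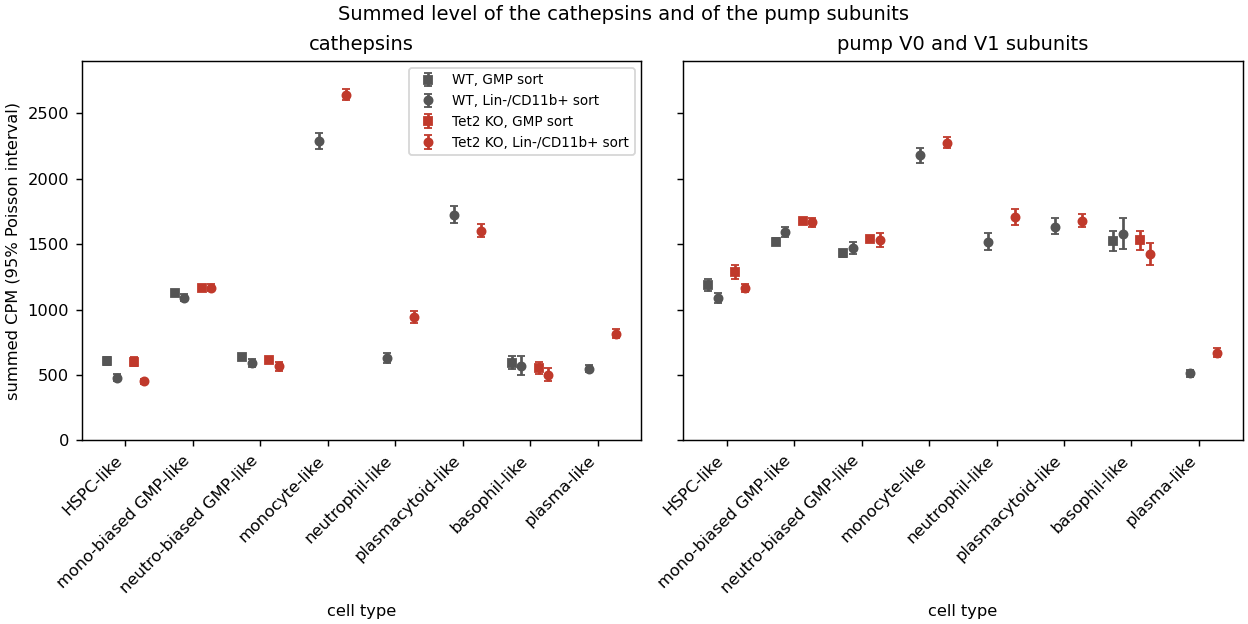
Summed CPM of the 10 cathepsins and of the 20 V0 and V1 pump subunits in each cell type, by sort and genotype, 1 library each; bars show 95% Poisson intervals. Monocyte-like cells are highest for both groups, with cathepsins at 2289 CPM in WT and 2644 CPM in Tet2 KO.

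Of 28 members with at least 20 UMIs in the gated cells, 15 were highest in monocyte-like cells of the WT Lin-/CD11b+ library and 7 in plasmacytoid-like cells, over the 8 types that reached 50 cells in each library. The plasmacytoid group held Ctsb, Ctsl and the subunits Atp6v0a2, Atp6v1d, Atp6v1g1, Atp6v1g2 and Atp6v1h. Of these Atp6v1g1, at 362 CPM, was level with monocyte-like cells, and Atp6v1g2 was low at 2.97 CPM. Atp6v0a1 and the aspartic protease cathepsin D (Ctsd) were highest in basophil-like cells, Atp6v1c1 in mono-biased and Atp6ap2 in neutro-biased GMP-like cells, Atp6v1e1 in neutrophil-like and Ctso in plasma-like cells. In Tet2 KO, 20 of 28 were highest in monocyte-like cells and 1, Atp6v1d, in plasmacytoid-like cells. Dendritic-like cells are outside this ranking for lack of WT cells. In Tet2 KO those in the gate had more Ctss, Ctsh and Ctsz than monocyte-like cells and less Ctsc, as given at the end. Plasma-like cells were lowest for 19 members in WT and 17 in Tet2 KO, but outside immunoglobulin genes for 2 and 1. They were then highest for 5 in WT (Atp6ap1, Atp6v0a2, Ctso, Ctss and Lamp2) and 8 in Tet2 KO, which left monocyte-like cells highest for 12 and 15.

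**Figure D2:**
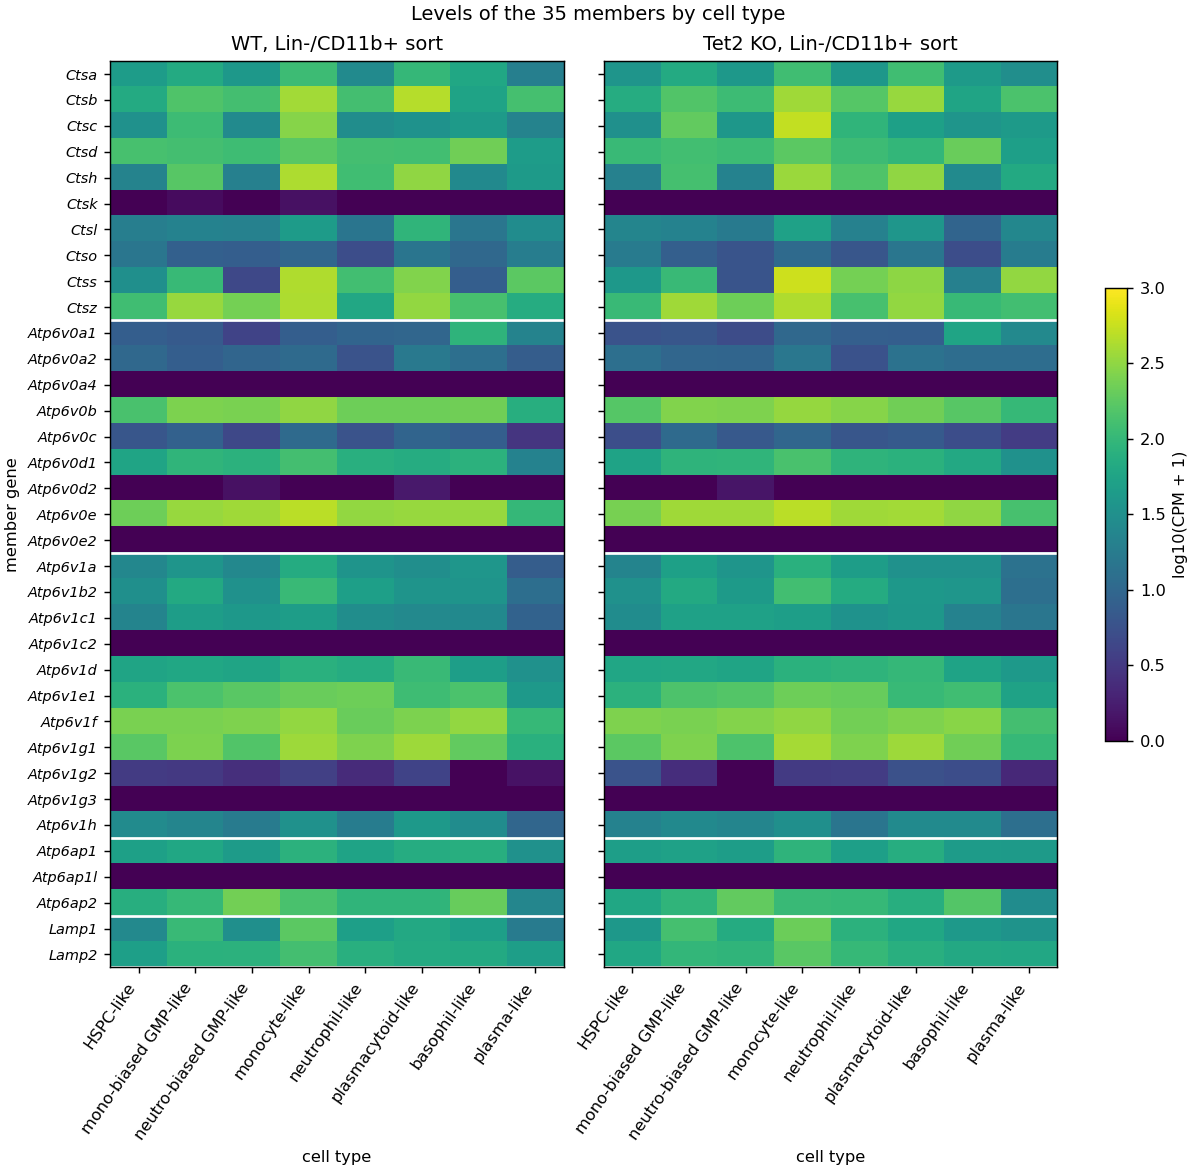
CPM of each of the 35 members (lines) in 8 cell types (columns) of the WT and the Tet2 KO Lin-/CD11b+ libraries, as the logarithm to base 10 of CPM + 1, grouped into cathepsins, V0, V1, accessory and Lamp. Monocyte-like and plasmacytoid-like cells are brightest among cathepsins, and 7 members are near 0, and dark, throughout.

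On CPM + 1 the steepest gradients over WT types were those of cathepsins S and H, followed by the V0 subunit Atp6v0a1 at 22.0-fold. Dendritic-like cells are not among the types of these ranges. In WT the Leiden cluster led by MHC class II genes had 457 CPM of Ctss. Outside immunoglobulin genes, in the Lin-/CD11b+ sort, Atp6v0a1 was at 22.0-fold and cathepsin H at 21.1-fold. Cathepsin S (Ctss) ranged from 1.12 CPM (0.485 to 2.22) in neutro-biased GMP-like cells of the WT GMP sort to 437 CPM (412 to 463) in WT monocyte-like cells. Between these lay HSPC-like cells at 14.7 CPM (GMP sort) and 30.3 CPM (Lin-/CD11b+ sort), mono-biased cells at 87.1 and 104 CPM, neutrophil-like cells at 124 CPM, plasma-like cells at 176 CPM and plasmacytoid-like cells at 269 CPM. Ctss thus separated the 2 GMP biases before maturity. It was the steepest of all members, the highest type being 206 times the lowest on CPM + 1. That low end rests on few UMIs, and neutro-biased cells of the WT Lin-/CD11b+ sort had 3.43 CPM, so the range within that sort is narrower. Outside immunoglobulin genes plasma-like cells had the most Ctss, 548 CPM (499 to 601) in WT against 438 CPM in monocyte-like cells. The plasma Leiden clusters were unlike, with 98.9 CPM of all UMIs in cluster 12 and 335 CPM in cluster 14 in WT. WT plasma-like cells also held neutrophil markers at 4064 CPM, dendritic markers at 2618 CPM and monocyte markers at 1041 CPM of all UMIs. Their part in the Ctss level was not tested.

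The aminopeptidase cathepsin H (Ctsh) had a like order. It was at 15.5 and 20.7 CPM in WT HSPC-like cells of the GMP and the Lin-/CD11b+ sort and at 17.6 and 19.1 CPM in neutro-biased cells, which did not differ beyond counting error. It stood at 151 and 166 CPM in mono-biased cells, 119 CPM in neutrophil-like, 317 CPM in plasmacytoid-like and 422 CPM (397 to 448) in monocyte-like cells, a 25.6-fold range on CPM + 1.

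Cathepsin C (Ctsc), a dipeptidyl peptidase, spanned 13.2-fold in WT, and its high end was narrower. It was at 287 CPM (267 to 309) in monocyte-like cells and at 109 and 111 CPM in mono-biased cells of the GMP and the Lin-/CD11b+ sort. Every other WT type lay between 20.9 and 41.8 CPM, including neutro-biased cells (29.7 and 26.0 CPM in the same order of sorts) and neutrophil-like cells (28.8 CPM). The lowest, plasma-like cells, had 65.0 CPM outside immunoglobulin genes, and without these genes the span in the Lin-/CD11b+ sort was 10.7-fold. The protease that activates neutrophil granule enzymes was therefore not most abundant as RNA in the granulocytic types of these libraries.

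Lamp1, which coats the inner face of the lysosomal membrane, covered a 10.0-fold range, from 16.6 CPM (12.05 to 22.4) in plasma-like to 176 CPM (159.8 to 192) in monocyte-like cells. Mono-biased cells had 113 and 107 CPM in the GMP and the Lin-/CD11b+ sort, and HSPC-like and neutro-biased cells 24.5 to 39.5 CPM. Atp6ap2, the prorenin receptor and a pump assembly factor, ran the other way, with a 9.98-fold range in WT. It was highest in neutro-biased cells, at 237 CPM in the GMP and 229 CPM in the Lin-/CD11b+ sort, against 103 and 101 CPM in mono-biased cells, 138 CPM in monocyte-like and 22.8 CPM in plasma-like cells. Both ranges are narrower outside immunoglobulin genes, where plasma-like cells had 51.8 CPM of Lamp1 and 71.0 CPM of Atp6ap2, at 6.91-fold and 3.19-fold in the Lin-/CD11b+ sort. Ctsz fell outside both orders: it was at 422 CPM in WT monocyte-like and 388 CPM in mono-biased cells of the GMP sort, and lowest in neutrophil-like cells at 62.3 CPM (50.2 to 76.5) and plasma-like cells at 71.6 CPM (61.7 to 82.7). Ctsb was highest in WT plasmacytoid-like cells at 460.04 CPM (428 to 494), above monocyte-like cells at 381.5 CPM (358 to 406).

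**Figure D3:**
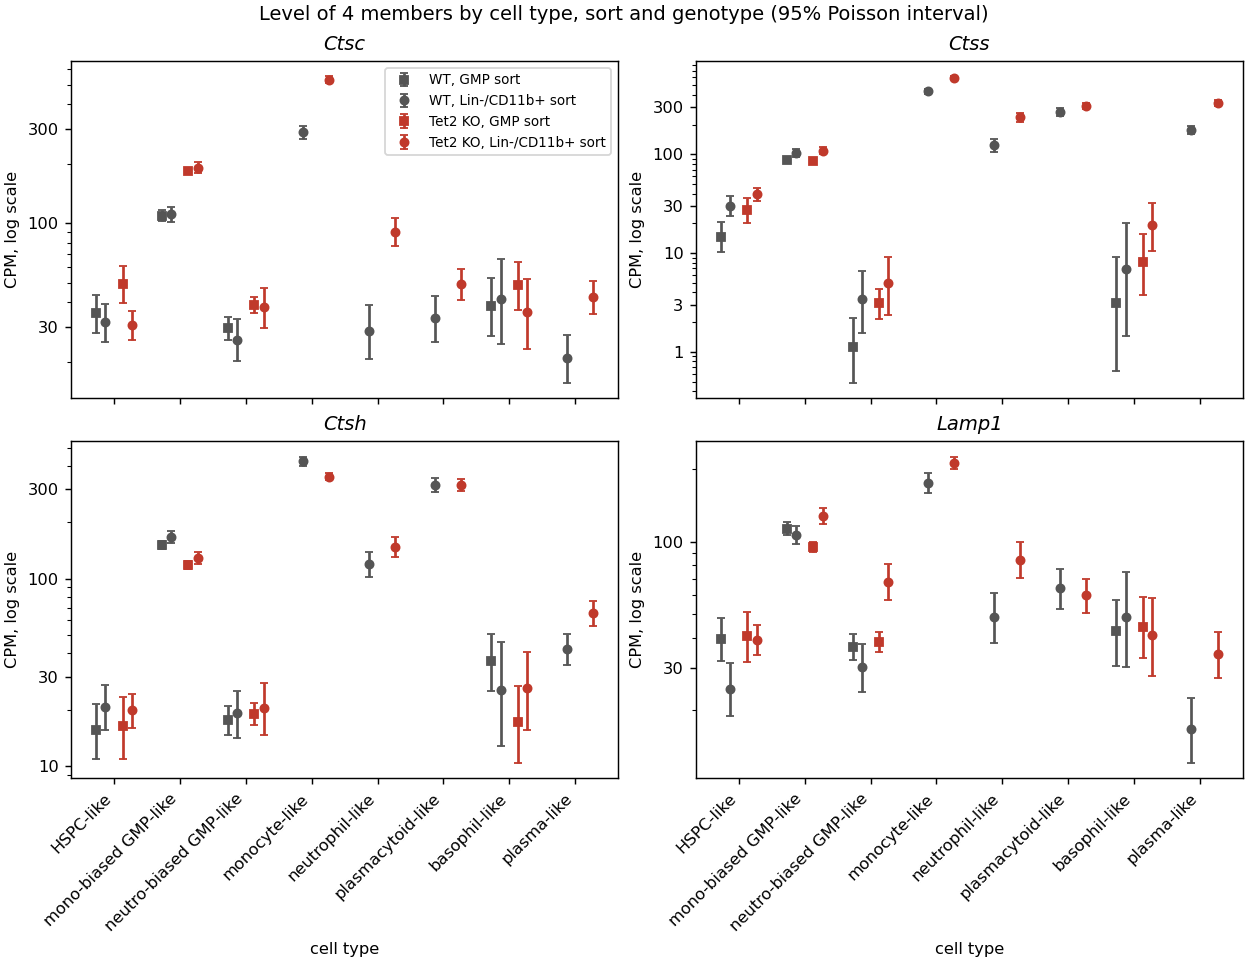
CPM of Ctsc, Ctss, Ctsh and Lamp1 by cell type on a log axis, for each sort and genotype, with 95% Poisson intervals. Ctsc is higher in Tet2 KO in mono-biased GMP-like, monocyte-like and neutrophil-like cells, and Ctss spans the widest range, from 1.12 CPM to 437 CPM in WT.

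Some members have in their promoter the letters CACGTG, the core of the element that TFEB and related factors of the lysosomal gene network are known to bind. It was searched in the 250 bases before each RefSeq start (GRCm38.p6) on both strands, where it reads the same. CACGTG was found in 6 of 26 members with a promoter in that table (23.1%), in 6.86% of 27025 genes of the table and in 9.01% of the 13135 that are also in the deposited gene list. The longer palindrome TCACGTGA, which contains CACGTG, was in 3 of 26 members (11.5%) against 0.907% of all genes and 1.48% of those in the gene list. The 6 were Lamp1 with 4 copies, Atp6v0b and Ctsd with 2, and Atp6v1a, Ctsa and Ctsl with 1. Promoters are shown for the member with the most copies, the abundant pump subunit with copies next to its start, and the 2 cathepsins that differed most between genotypes, which have none. Each is 5′ to 3′ on the strand of the gene, with CACGTG in capitals: Lamp1 at chr8:13158911-13159160 (plus strand), Atp6v0b at chr4:117887330-117887579 (minus), Ctsc at chr7:88277835-88278084 (plus) and Ctss at chr3:95526536-95526785 (plus). A match is a description of the letters in this window and says nothing of binding.
Lamp1: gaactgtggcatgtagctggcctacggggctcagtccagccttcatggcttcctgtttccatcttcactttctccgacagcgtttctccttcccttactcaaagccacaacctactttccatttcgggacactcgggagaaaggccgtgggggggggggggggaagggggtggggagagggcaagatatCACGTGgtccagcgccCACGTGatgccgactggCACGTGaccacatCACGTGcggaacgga
Atp6v0b: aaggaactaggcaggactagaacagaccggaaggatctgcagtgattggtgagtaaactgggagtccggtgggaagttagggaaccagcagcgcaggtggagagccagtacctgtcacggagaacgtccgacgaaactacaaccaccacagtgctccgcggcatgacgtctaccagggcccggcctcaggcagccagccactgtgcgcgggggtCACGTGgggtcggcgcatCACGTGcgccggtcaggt
Ctsc: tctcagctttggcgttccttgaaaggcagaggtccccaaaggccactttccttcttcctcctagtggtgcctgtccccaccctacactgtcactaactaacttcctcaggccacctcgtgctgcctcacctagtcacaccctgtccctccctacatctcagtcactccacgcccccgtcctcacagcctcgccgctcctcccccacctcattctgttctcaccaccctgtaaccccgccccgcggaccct
Ctss: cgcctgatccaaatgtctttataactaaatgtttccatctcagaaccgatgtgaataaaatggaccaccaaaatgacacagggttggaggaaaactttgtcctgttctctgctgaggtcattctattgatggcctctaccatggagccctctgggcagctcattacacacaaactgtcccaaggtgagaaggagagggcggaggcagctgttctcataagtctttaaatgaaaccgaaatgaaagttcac

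Of the Lamp1 copies all 4 lie within 61 bases of the start. Ctss lies 17423 bases from Ctsk on chromosome 3, and its neighbour was near 0 in the same cells. Of the 6 members with CACGTG, 4 were highest in WT monocyte-like cells (Lamp1, Ctsa, Atp6v0b and Atp6v1a), against 15 of 28 members. Ctsd was highest in basophil-like and Ctsl in plasmacytoid-like cells. In Tet2 KO 5 of the 6, with Ctsl, were highest in monocyte-like cells, against 20 of 28.

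The next question is how the set differs between mature and early cells within 1 library. In WT monocyte-like cells the members summed to 2.83 times the level in HSPC-like cells of the same library (2.73 to 2.92). Cathepsins stood at 4.77 times (4.49 to 5.08), Lamp genes at 4.12 times (3.51 to 4.85) and V0 and V1 subunits at 2.01 times (1.92 to 2.10). On log2 of CPM + 1, 17 of 27 members with at least 20 UMIs were over 2-fold higher, against 11.1% of all genes, and 0 were over 2-fold lower, against 14.7%. Their median was 1.19 against -0.13 over all genes. By family 7 of 9 cathepsins, 3 of 6 V0 subunits, 5 of 8 V1 subunits, 0 of 2 accessory proteins and both Lamp genes passed 2-fold. The ratios of CPM were led by Ctsh at 20.4 (15.5 to 27.3), Ctss at 14.4 (11.5 to 18.4), Ctsc at 9.03 (7.19 to 11.5) and Lamp1 at 7.15 (5.50 to 9.44). The Tet2 KO library gave 16 higher (10.6% of all genes) and 0 lower (16.1%) of 28, and a ratio of sums of 3.02.

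Neutrophil-like cells had fewer members over 2-fold higher, all of them also higher in monocyte-like cells. The median of all genes over HSPC-like cells was -0.99 on log2 in WT and -0.75 in Tet2 KO. In WT 3 of 27 members were over 2-fold higher (7.93% of all genes) and 1 was over 2-fold lower (49.4%). The 3 were Ctsh with a ratio of 5.75 (4.22 to 7.96), Ctss with 4.09 (3.12 to 5.40) and Atp6v1e1 with 2.61 (2.19 to 3.12), and the lower 1 was Ctso with 0.290. Relative to the median of all genes 17 were over 2-fold higher (20.3% of all genes) and 0 lower (20.4%), so the count depends on the scale. In Tet2 KO 8 of 28 were higher (7.96%) and 2, Ctso and Atp6v0a2, lower (41.2%), and relative to the median 18 were higher (18.6%) and 0 lower (19.1%). The member median in WT was 0.38, above the -0.99 of all genes.

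For dendritic-like cells the gate left 45 WT cells, under the minimum of 50, so they are given by the Leiden cluster led by MHC class II genes (151 WT and 342 Tet2 KO cells). Of the cluster's cells 37 in WT and 177 in Tet2 KO passed the dendritic-like gate, so most of its WT cells did not. In WT, MHC class II genes were at 22356 CPM in gated cells and 6760 CPM in the cluster. In the WT cluster the members summed to 4177 CPM and to 2.35 times the level of the HSPC-like clusters (2.26 to 2.44). Of 27 members 12 were over 2-fold higher (12.8% of all genes) and 1, Ctsd, over 2-fold lower (12.5%), with a ratio for Ctsd of 0.419 (0.320 to 0.540). Ctsh at 41.8 (29.4 to 61.3) and Ctss at 22.8 (17.3 to 30.5) had the largest ratios, as they had in monocyte-like cells. The 12 also held Lamp1, Atp6ap1 and the subunits Atp6v0b, Atp6v0e, Atp6v1g1 and Atp6v1d. In Tet2 KO 10 of 28 were higher (12.2%) and 1, Atp6v1g2, lower (12.7%), while Ctsd had a ratio of 0.567 (0.480 to 0.667) and was not past 2-fold.

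Between the 2 GMP biases of the WT GMP library, 4 of 28 members were over 2-fold higher in mono-biased cells (5.02% of all genes) and 1 was over 2-fold lower (3.67%). The higher ones were Ctss with a ratio of 77.5 (39.1 to 180.02), Ctsh with 8.60 (7.16 to 10.4), Ctsc with 3.68 (3.17 to 4.29) and Lamp1 with 3.09 (2.69 to 3.55). The lower one was Atp6ap2 with 0.433 (0.399 to 0.469). The pump itself hardly differed, with 1519 CPM of V0 and V1 subunits against 1430.1 CPM (ratio 1.06, 1.04 to 1.09). The Tet2 KO GMP library also gave 4 higher (3.90%) and 1 lower (2.95%).

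The main comparison of the study is Tet2 KO against WT. In the sum of all members the genotypes were close in most types. HSPC-like cells of the GMP sort had 2088 CPM in WT and 2190.2 CPM in Tet2 KO (ratio 1.05, 1.01 to 1.09), mono-biased GMP-like cells 3006 and 3183 CPM (1.06, 1.04 to 1.07) and neutro-biased GMP-like cells 2464 and 2541 CPM (1.03, 1.01 to 1.05). Monocyte-like cells of the Lin-/CD11b+ sort had 4992 and 5500.4 CPM (1.10, 1.08 to 1.12). Neutrophil-like cells had 2419 and 2987 CPM (1.23, 1.18 to 1.29). The last ratio needs its background: the median of all genes was 0.25 higher on log2 in Tet2 KO neutrophil-like cells, and with TMM factors, which move that median to 0.03, the ratio was 1.05. In the other 4 comparisons the median of all genes lay between -0.05 and 0.02. Outside these 5 types, plasma-like cells had the largest ratio, 1.40 (1.34 to 1.47) at 1179 and 1654 CPM, and 1.16 (1.10 to 1.21) outside immunoglobulin genes. Monocyte markers in plasma-like cells were also higher in Tet2 KO, as given below with Ctss, and their part in this ratio was not tested. The ratio was 0.976 (0.945 to 1.01) in plasmacytoid-like cells, and in basophil-like cells 0.961 (0.909 to 1.02) in the GMP and 0.878 (0.813 to 0.949) in the Lin-/CD11b+ sort.

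Beside this, neutrophil markers made up 460550 CPM in WT and 389190 CPM in Tet2 KO neutrophil-like cells, with 0 of 9 at 0 in either and S100a8 at 202490 and 181800 CPM. GMP markers were at 868 and 2095 CPM there, with 0 of 5 at 0 and Elane the most abundant at 322 and 965 CPM. In medians over cells, neutrophil markers took 50.8% and 45.3% of a cell's UMIs and GMP markers 0.0232% and 0.0353%. Their part in the neutrophil-like differences was not tested.

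The families did not move alike. In mono-biased cells of the GMP sort V0 and V1 subunits summed to 1519 CPM in WT and 1678 CPM in Tet2 KO (1.10, 1.08 to 1.13), and cathepsins to 1128 and 1166 CPM (1.03, 1.01 to 1.06). The Lin-/CD11b+ sort gave the reverse order for these cells, with 1.05 (1.02 to 1.08) for the pump and 1.07 (1.03 to 1.11) for cathepsins. The pump ratio was 1.08 (1.02 to 1.14) in HSPC-like, 1.07 (1.05 to 1.10) in neutro-biased, 1.04 (1.01 to 1.08) in monocyte-like and 1.12 (1.06 to 1.19) in neutrophil-like cells. In neutrophil-like cells this is 0.17 on log2, less than the 0.25 by which the median of all genes was higher. Cathepsins instead were at 0.991 (0.915 to 1.07) in HSPC-like and 0.970 (0.934 to 1.01) in neutro-biased cells, and at 1.16 (1.12 to 1.19) in monocyte-like and 1.4997 (1.38 to 1.63) in neutrophil-like cells. Accessory proteins were at 0.881 (0.795 to 0.976) in monocyte-like and 1.03 (0.855 to 1.24) in neutrophil-like cells. HSPC-like, mono-biased and neutro-biased cells of the Lin-/CD11b+ sort gave 0.855 (0.743 to 0.985), 0.887 (0.801 to 0.983) and 0.865 (0.768 to 0.973). In the GMP sort these were 1.04 (0.897 to 1.19), 0.951 (0.891 to 1.02) and 0.957 (0.904 to 1.01). The pair of Lamp genes was at 1.28 (1.17 to 1.39) in monocyte-like and 1.48 (1.23 to 1.79) in neutrophil-like cells. In the GMP sort it was at 0.940 (0.886 to 0.998) in mono-biased, 1.06 (0.879 to 1.29) in HSPC-like and 1.02 (0.936 to 1.11) in neutro-biased cells. The Lin-/CD11b+ sort gave 1.19 (1.09 to 1.30), 1.35 (1.14 to 1.60) and 1.40 (1.19 to 1.64) in the same order.

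Gene by gene, few members passed 1.5-fold. In HSPC-like cells of the GMP sort 1 of 26 was higher in Tet2 KO (3.79% of all genes) and 0 lower (8.80%). The counts were 1 of 28 higher (1.91%) and 0 lower (2.77%) in mono-biased GMP-like cells, and 1 of 28 higher (2.46%) and 0 lower (3.59%) in neutro-biased GMP-like cells. In monocyte-like cells 1 of 27 was higher (7.99%) and 0 lower (4.56%), and in neutrophil-like cells 4 of 24 were higher (20.4%) and 0 lower (4.23%). These small counts depend on the settings: the 4 became 7 without the highest 5% of Scrublet scores, the 1 in HSPC-like cells 0 with gate version 1, and the 1 in neutro-biased cells 0 with an offset of 10 CPM. The member medians were 0.07, 0.04, 0.04, 0.08 and 0.30 on log2 in this order, against -0.05, -0.02, -0.05, 0.02 and 0.25 over all genes. These counts are near the shares of all genes. Members above 0 numbered 18 of 26, 15 of 28, 17 of 28, 21 of 27 and 19 of 24, against 44.0%, 46.9%, 41.3%, 53.4% and 72.4% of all genes. In monocyte-like cells the ratio of sums without Ctsc was 1.06 instead of 1.10. For mono-biased cells the same step gave 1.04 instead of 1.06.

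**Figure D4:**
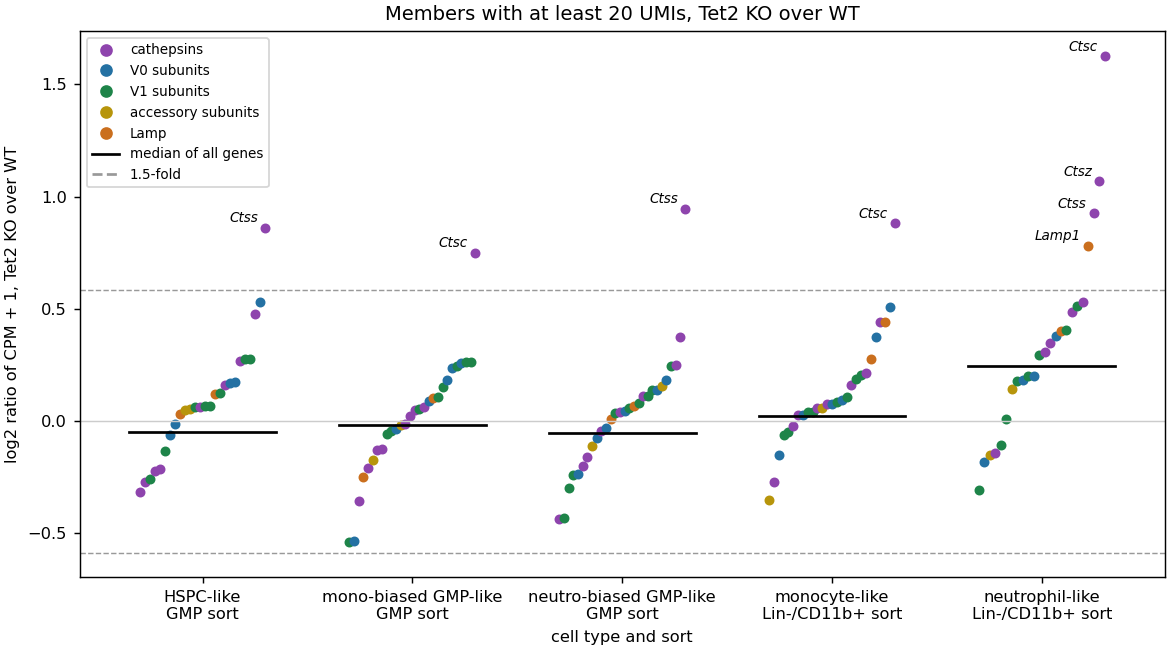
log2 of CPM + 1, Tet2 KO over WT, of each member with at least 20 UMIs (points, coloured by family) in 5 cell types, with the median of all genes as a black line and 1.5-fold as dashed lines. Ctsc, Ctss, Ctsz and Lamp1 are the named members past 1.5-fold, and in neutrophil-like cells the median of all genes is at 0.25.

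Ctsc had the largest median difference of the members, 0.64 on log2 over 8 comparisons of types and sorts, above 0 in 7 and at -0.05 in the other. It was at 109 CPM in WT and 184 CPM in Tet2 KO mono-biased GMP-like cells of the GMP sort (1.69, 1.57 to 1.82), and at 111 and 191 CPM in those of the Lin-/CD11b+ sort (1.71, 1.54 to 1.91). In monocyte-like cells it was at 287 and 530.1 CPM (1.85, 1.70 to 2.00). Neutrophil-like cells had 28.8 and 90.8 CPM (3.16, 2.23 to 4.56), a log2 difference of 1.38 relative to the median of all genes, while the neutrophil Leiden cluster gave 27.6 and 65.8 CPM (2.39, 1.64 to 3.53). Along the monocytic path the Tet2 KO levels were thus higher than WT levels at both stages, with intervals that do not overlap.

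Markers of other stages also differed between these mono-biased cells. In the GMP sort neutrophil markers summed to 42.0 CPM in WT and 223 CPM in Tet2 KO, led by S100a8 at 18.1 and 165 CPM, with Retnlg of 9 at 0 in WT and Ngp and Ltf in Tet2 KO. In the Lin-/CD11b+ sort they were at 306 and 718 CPM, led by S100a8 at 133 and 512 CPM, with 0 of 9 at 0. Mono-bias markers were lower in Tet2 KO, at 1458 and 1245 CPM in the GMP sort (Irf8 most abundant at 581 and 451 CPM, 0 of 6 at 0) and at 1555 and 1316 CPM in the Lin-/CD11b+ sort. Monocyte markers of the GMP sort were at 4714 and 5323 CPM, led by Ly6c2 at 2988 and 3275 CPM, with 0 of 8 at 0. Their part in the mono-biased differences was not tested.

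In early and granulocytic progenitors the difference in Ctsc was smaller, and gate and clusters did not agree. HSPC-like cells of the GMP sort had 35.3 CPM in WT and 49.4 CPM in Tet2 KO (1.40, 1.03 to 1.91), but the HSPC Leiden clusters 2 and 10 gave 0.952 (0.651 to 1.395) and 1.12 (0.748 to 1.69). Those of the Lin-/CD11b+ sort had 31.8 and 30.8 CPM (0.967). Neutro-biased cells had 29.7 and 38.8 CPM in the GMP sort (1.31, 1.11 to 1.55), but the Leiden clusters 3 and 6 that hold most of them gave 1.02 (0.783 to 1.32) and 1.12 (0.873 to 1.44). Neutro-biased cells of the other sort had 26.0 and 37.8 CPM (1.46, 1.04 to 2.05), and the clusters gave 1.02 (0.570 to 1.82) and 1.23 (0.755 to 2.01). Among their leading genes cluster 6 had 2 GMP and 0 neutro-bias markers, and cluster 10 had 0 HSPC markers. In neutro-biased cells of the GMP sort monocyte markers summed to 1462 CPM in WT and 2720 CPM in Tet2 KO, led by Ly6c2 at 1268 and 2414 CPM with 0 of 8 at 0, and took 0.121% and 0.256% of the UMIs of the median cell. Neutrophil markers there were at 440 and 1818 CPM, led by S100a8, with Ltf and Mmp8 of 9 at 0 in WT. In HSPC-like cells of the GMP sort monocyte markers were at 881 and 1342 CPM, led by Ly6c2, with 1 of 8 at 0 in each (Fn1 in WT, Vcan in Tet2 KO). Their part in the Ctsc values was not tested.

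Leiden clusters made without the members gave like values where the difference was large. Mono-biased GMP-like cells fell mostly in clusters 0 and 1 in both genotypes, and cluster 1 had 3 monocyte against 2 mono-bias markers among its leading genes, so each is given alone. Ctsc was 1.60 times as high in Tet2 KO in cluster 0 (1.46 to 1.76) and 1.59 times in cluster 1 (1.42 to 1.79) in the GMP sort, and 1.93 and 1.65 times in the Lin-/CD11b+ sort. In monocyte cluster 5 it was 1.77 times as high (1.63 to 1.93), at 285 and 505 CPM. The sum of all members was 1.04 (1.03 to 1.06), 1.05 (1.02 to 1.07) and 1.06 (1.04 to 1.08) in clusters 0, 1 and 5.

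Ctss followed another pattern. It did not differ in mono-biased GMP-like cells, at 87.1 CPM in WT and 86.4 CPM in Tet2 KO (0.992, 0.908 to 1.08). It was higher in Tet2 KO in monocyte-like cells, at 437 and 593 CPM (1.36, 1.27 to 1.45), and in neutrophil-like cells, at 124 and 236 CPM (1.91, 1.59 to 2.28). In the Lin-/CD11b+ sort it also stood at 176 and 328 CPM in plasma-like and at 269 and 306 CPM in plasmacytoid-like cells. Basophil-like cells there had 3 UMIs in WT and 14 in Tet2 KO, while the basophil Leiden cluster went the other way, at 37.9 and 7.53 CPM (22 and 7 UMIs; 0.199, 0.0717 to 0.482). Monocyte markers in plasma-like cells were at 1041 CPM in WT and 2593 CPM in Tet2 KO, led by Ly6c2 at 513 and 1199 CPM, with Vcan of 8 at 0 in WT, and their part in the Ctss value was not tested. In HSPC-like cells of the GMP sort it was the member past 1.5-fold, with 35 UMIs in WT and 49 in Tet2 KO (14.7 and 27.5 CPM; 1.87, 1.19 to 2.98), but in the HSPC Leiden clusters 2 and 10 only 3.03 and 9.40 CPM, and 2.76 and 4.97 CPM. In neutro-biased cells it rested on 8 and 36 UMIs (1.12 and 3.09 CPM; 2.75, 1.26 to 6.85).

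The Ctss difference depended on which cells were included. Leiden cluster 13, led by Wfdc17, Ccl6 and Saa3, held 27 of the WT and 126 of the Tet2 KO monocyte-like cells (9.68% and 23.0%), and 1 and 11 of the neutrophil-like cells. With 1 library a genotype, a cluster mostly of 1 library may belong to that library. Its monocyte-like cells had member sums of 7273 CPM in WT (6857 to 7708) and 7417 CPM in Tet2 KO (7243 to 7595), against 4909 and 5221 CPM in cluster 5. Ctss was at 1488 and 1416 CPM there, against 375 and 425 CPM in the monocyte-like cells of cluster 5. Within cluster 13 Ctss therefore did not differ by genotype, while Ctsc did, at 338 CPM in WT (254 to 443) and 693 CPM in Tet2 KO (640.5 to 749). Without cluster 13 the log2 difference of Ctss was 0.19 in monocyte-like and 0.50 in neutrophil-like cells, and the latter is no longer past 1.5-fold. The neutrophil Leiden cluster gave 0.42. By the monocyte Leiden clusters, which include cluster 13, the log2 difference was 0.55, larger than with the gate.

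In monocyte-like cells neutrophil markers also moved with genotype, at 898 CPM in WT and 5482 CPM in Tet2 KO, led by S100a8 at 511 and 4132 CPM with 0 of 9 at 0. In the median cell they took 0.0380% and 0.0859% of UMIs. Monocyte markers were at 19453 and 21071 CPM. Their part in the monocyte-like differences was not tested.

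Neutrophil-like cells had 2 further members past 1.5-fold. Ctsz was at 62.3 CPM in WT and 132 CPM in Tet2 KO (2.11, 1.65 to 2.73), while in monocyte-like cells it was at 422 and 439 CPM and in mono-biased cells at 388 and 405 CPM. Lamp1 was at 48.6 and 84.3 CPM (1.73, 1.29 to 2.34). Relative to the median of all genes, 3 of 24 members, Ctsc, Ctsz and Ctss, remained past 1.5-fold higher (9.79% of all genes) and 0 lower (10.3%), Lamp1 did not, and the member median was 0.06.

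Lamp1 did not go one way over types and sorts. Mono-biased cells of the GMP sort had less of it in Tet2 KO, at 113 CPM in WT and 95.2 CPM in Tet2 KO (0.840, 0.776 to 0.911), and in those of the Lin-/CD11b+ sort higher, at 107 and 128 CPM (1.19, 1.06 to 1.34). In monocyte-like cells it was at 176 and 213 CPM (1.21, 1.09 to 1.36). In the Lin-/CD11b+ sort HSPC-like cells had 24.5 and 39.2 CPM (1.60, 1.20 to 2.16) and neutro-biased cells 30.1 and 68.2 CPM (2.26, 1.70 to 3.02), while the GMP sort gave 39.5 and 40.4 CPM and 36.7 and 38.5 CPM. The HSPC Leiden clusters of the Lin-/CD11b+ sort did not agree, with 32.8 and 33.9 CPM in cluster 2 (1.03, 0.745 to 1.45) and 19.5 and 33.3 CPM in cluster 10 (1.71, 1.06 to 2.84). Neutrophil markers in the neutro-biased cells of this sort were at 1739 CPM in WT and 6839 CPM in Tet2 KO, led by S100a8 at 1167 and 5165 CPM with 0 of 9 at 0, and their part in the Lamp1 value was not tested. Of 28 members in the HSPC-like cells of that second sort 2 were past 1.5-fold higher (7.24% of all genes), Lamp1 and Atp6v1g2, and 0 lower (3.38%). Of 25 in neutro-biased cells there, 2 were higher (6.39%), Lamp1 and Atp6v0c, and 0 lower (6.04%), and of 27 in mono-biased cells 1, Ctsc, was higher (5.13%) and 0 lower (3.34%). Lamp2, its close relative, was at 126 CPM in WT and 172 CPM in Tet2 KO monocyte-like cells (1.36, 1.20 to 1.55) and above 0 on log2 in 8 of 8 comparisons.

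Along the monocytic path Ctsh was lower in Tet2 KO, though over all 8 comparisons it was above 0 on log2 in 4 and below 0 in 4. It was at 151 CPM in WT and 118 CPM in Tet2 KO mono-biased GMP-like cells of the GMP sort (0.780, 0.727 to 0.838), at 166 and 129 CPM in those of the Lin-/CD11b+ sort (0.773) and at 422 and 349.6 CPM in monocyte-like cells (0.829, 0.769 to 0.893). It was not lower in neutrophil-like cells, at 119 and 148 CPM, nor in the GMP sort in HSPC-like (15.5 and 16.3 CPM) and neutro-biased cells (17.6 and 19.1 CPM). In mono-biased and monocyte-like cells Ctsc and Ctsh, both of which trim proteins from the amino end, thus differed in opposite directions. Ctsd was at 165 and 133 CPM in HSPC-like cells of the GMP sort (0.803, 0.680 to 0.946) and below 0 on log2 in 7 of 8 comparisons, though never past 1.5-fold. Ctsd was named after its values were seen, as were Lamp2 and the members in the next sentences other than Ctsb and Atp6ap2. In WT and Tet2 KO plasmacytoid-like cells Ctsb was at 460.04 and 342 CPM and Ctsl at 92.0 and 36.2 CPM. Plasmacytoid markers there were at 4178 and 3126 CPM with 0 of 7 at 0, the most abundant being Ly6d at 1556 CPM in WT and Bst2 at 989.6 CPM in Tet2 KO. Dendritic markers were at 620.3 and 1751 CPM, led by Cd74 at 284 and 841 CPM with 0 of 9 at 0. The part of either list in the Ctsb and Ctsl values was not tested. Atp6ap2 was at 138 and 108 CPM in monocyte-like cells (0.782, 0.685 to 0.894), and at 237 and 219.6 CPM in neutro-biased cells.

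Several abundant pump subunits were slightly higher in Tet2 KO, though not with every scaling. Atp6v0e was above 0 on log2 in 8 of 8 comparisons, for instance at 330.5 CPM in WT and 376 CPM in Tet2 KO mono-biased GMP-like cells (1.14, 1.09 to 1.19) and at 326 and 369 CPM in neutro-biased cells. With TMM factors it was -0.02 in neutrophil-like cells, where Atp6v1f was -0.05, Atp6v1g1 -0.22 and Atp6v1e1 -0.33. Atp6v0b was above 0 in 8 of 8 as well, between 0.07 and 0.38, with 239 and 281 CPM in mono-biased cells (1.18, 1.12 to 1.24) and 219 and 285 CPM in neutrophil-like cells (1.30, 1.13 to 1.502). Atp6v1f was at 242 and 269 CPM and Atp6v1g1 at 243 and 262 CPM in mono-biased cells. In monocyte-like cells these 2 were at 328 and 314 CPM and at 361 and 389 CPM. Atp6v0d1, Atp6v1e1 and Atp6v1b2 were between -0.04 and 0.18, -0.12 and 0.08, and -0.13 and 0.51 on log2 over the 8 comparisons. Atp6v1g2 was lower in 2 of 3 comparisons with enough UMIs, at 1.76 and 0.903 CPM in mono-biased cells (16 and 14 UMIs; 0.512, 0.232 to 1.12), a difference within counting error.

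In the MHC class II cluster the members summed to 4177 CPM in WT and 4426 CPM in Tet2 KO (1.06, 1.03 to 1.09). Ctsc was at 77.3 and 121 CPM (1.57, 1.249 to 1.99) and Ctss at 457 and 620.3 CPM (1.36, 1.24 to 1.496). Of 27 members 4 were past 1.5-fold higher (9.97% of all genes), Ctsc, Atp6v0a1, Atp6v0a2 and Atp6v1a, and 1, Atp6v0c, lower (7.25%). MHC class II genes in this cluster summed to 6760 CPM (WT) and 15055 CPM (Tet2 KO), and their part in these values was not tested.

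Related genes place the set in its pathway. They were lists of 4 other cathepsins, 8 cystatins and stefins that inhibit cathepsins, Tcirg1, 47 other lysosomal hydrolases and membrane proteins, and 14 regulators such as Tfeb and the Ragulator subunits. From HSPC-like to monocyte-like cells in WT, 15 of 45 other lysosomal genes were over 2-fold higher (11.1% of all genes) and 1, Cd63, lower (14.7%). The list summed to 2046 and 6330.2 CPM (3.09, 2.9996 to 3.19), and much of this was Psap, the precursor of the saposins, at 196 and 2551 CPM. Of 13 regulators 5 were higher and 0 lower: Tfeb, Tfe3, Tfec, Lamtor1 and Lamtor4. Of 3 measured inhibitors 2 were higher, Cst3 (cystatin C) at 777 and 2837 CPM and Cstb at 83.6 and 391 CPM, and Tcirg1 was at 19.9 and 56.9 CPM (2.85, 2.07 to 3.99).

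The Tet2 KO over WT ratio of sums was lower for the other lysosomal genes than for the cathepsins in mono-biased and monocyte-like cells, and Ctsc accounts for part of the gap. In monocyte-like cells they summed to 6330.2 CPM in WT and 5587 CPM in Tet2 KO (0.883, 0.866 to 0.899), where the cathepsins were at 1.16, or 1.06 (1.02 to 1.09) without Ctsc. Psap was at 2551 and 2148 CPM (0.842, 0.817 to 0.868) and made up much of that difference. In mono-biased GMP-like cells the list was at 0.913 (0.899 to 0.927) and the cathepsins at 1.03, or 0.964 (0.940 to 0.990) without Ctsc. Of the list 1 of 46 was higher (1.91% of all genes), Cd63 at 40.4 and 70.9 CPM, and 0 lower (2.77%). In neutrophil-like cells the list was at 1.24 (1.18 to 1.30), with 9 of 32 higher (20.4% of all genes) and 0 lower, and a list median of 0.30 on log2 against 0.25. HSPC-like cells gave 0.981, with Ostm1 and Sort1 lower of 36 (8.80% of all genes), and neutro-biased cells 0.978, with 0 of 44 past 1.5-fold, close to the cathepsins at 0.991 and 0.970.

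The regulators summed to 1.16 times WT in HSPC-like cells of the GMP sort (1.09 to 1.24), but to 1.01 times (0.958 to 1.07) in the other sort. They summed to 1.09 times in mono-biased (1.07 to 1.12) and 1.13 times in neutro-biased cells (1.10 to 1.16) of the GMP sort, against 1.07 (1.03 to 1.11) and 1.09 (1.03 to 1.15) in the other. Monocyte-like cells had 1.03 times (0.994 to 1.08) and neutrophil-like cells 1.07 times (0.997 to 1.14). In single genes past 1.5-fold the regulators had Rptor of 11, 0 of 14, Tfeb of 14, Mtor of 14 and Rragc of 10 higher in the 5 types in this order (3.79%, 1.91%, 2.46%, 7.99% and 20.4% of all genes), and none lower in these 5 comparisons. The inhibitors were at 0.9498 (0.925 to 0.975) in monocyte-like and 1.22 (1.14 to 1.31) in neutrophil-like cells. In neutrophil-like cells 2 of 5 were past 1.5-fold higher (20.4% of all genes), Cstb at 78.7 and 133 CPM and Cst7 at 6.16 and 19.6 CPM, and 2 lower (4.23%), Stfa1 at 30.8 and 2.37 CPM and Stfa2l1 at 24.7 and 5.34 CPM, stefins whose near-identical copies make single values uncertain. The granule protease Ctsg, which cathepsin C activates, was at 55.5 and 141 CPM in neutrophil-like (2.54, 1.96 to 3.31), 6593 and 6464 CPM in neutro-biased, 3021 and 3221 CPM in mono-biased and 726 and 671 CPM in monocyte-like cells, so its RNA did not follow Ctsc along the monocytic path. Tcirg1 was at 50.1 and 37.9 CPM in mono-biased cells of the GMP sort (0.755, 0.667 to 0.855), but at 37.6 and 41.1 CPM in the Lin-/CD11b+ sort (1.09, 0.894 to 1.34), so the sorts did not agree.

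The list of other cathepsins held a larger difference than any member. Ctse (cathepsin E), an aspartic protease, was past 1.5-fold lower in Tet2 KO in each of the 9 comparisons made, namely 8 of types and sorts and the MHC class II cluster. In the GMP sort it was at 55.004 CPM in WT and 2.81 CPM in Tet2 KO HSPC-like cells (0.0510, 0.0163 to 0.122), at 30.6 and 1.23 CPM in mono-biased and at 56.2 and 1.29 CPM in neutro-biased cells. The Lin-/CD11b+ sort had 59.8 and 6.53 CPM in HSPC-like, 26.1 and 0.554 CPM in mono-biased, 40.1 and 1.99 CPM in neutro-biased, 28.2 and 0.368 CPM in monocyte-like and 38.3 and 1.19 CPM in neutrophil-like cells. WT and Tet2 KO intervals overlap in none of these types. Ctse was highest in WT basophil-like cells, at 174 CPM in the GMP and 132 CPM in the Lin-/CD11b+ sort.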

How the data were processed

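The deposited matrices hold raw UMI counts for 18695 genes and 8969 cells, which the authors made with Cell Ranger 3.1.0 and Seurat on mm10 keeping cells with 200 or more genes, 5000 or more UMIs and less than 5% mitochondrial counts. Deposited cells over 5% (116, 180, 44 and 73 in the order of libraries above) were kept. CPM was computed here from these counts per library and type, with no other scaling. Kit version is v2 in the sample labels and v3.1 in the series design text. The study's supplementary table of cell numbers gives Tet2 KO GMP and WT Lin-/CD11b+ the other way round. The labels of the files were kept: Tet2 KO GMP held 0 neutrophil-like and 0 plasma-like cells, and WT Lin-/CD11b+ 152 and 165.

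Of the marker gate 4 versions were tried on markers, clusters and cell numbers. They gave 42, 58, 45 and 54 WT dendritic-like cells in the Lin-/CD11b+ sort. Version 4 was taken up because it passed the minimum of 50 cells, then dropped for that reason before any member level was read, and version 3 was used. Versions 1 to 4 and the cluster gave dendritic-like ratios of sums, Tet2 KO over WT, of 1.10, 1.07, 1.14, 1.11 and 1.06. Clusters came from 2000 variable genes without the members, 30 components, 30 neighbours and Leiden resolution 0.8. Doublets were kept, and the highest 5% of Scrublet scores were left out as an alternative.

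Members with under 20 UMIs over both sides of a comparison got no fold. Members and lists were chosen with earlier results of these data known. Genes were named by level in WT (6 highest), range over WT types (6 widest), recurrence over genotype comparisons and isoform choice.

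Software was Python 3.11.15, numpy 2.4.6, scipy 1.17.1, pandas 2.3.3, scanpy 1.11.5, leidenalg 0.10.2, igraph 0.11.9, scikit-learn 1.9.0, matplotlib 3.10.9, R 4.3.3 and edgeR 4.0.16.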

Additional observations from a re-analysis of the deposited data

Results flagged for a closer look

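Lamp1 differed in opposite directions between types. It was 0.78 higher on log2 in Tet2 KO neutrophil-like cells and at -0.25 in the GMP sort's mono-biased GMP-like cells, a gap of 1.03. The median of all genes was itself at 0.25 in the neutrophil-like and at -0.02 in the mono-biased comparison. Relative to it Lamp1 was not past 1.5-fold in neutrophil-like cells. The gap was not tested, and the rule that picked it was set after member values had been seen. Mono-biased cells of the Lin-/CD11b+ sort gave 0.25 (ratio 1.19, 1.06 to 1.34), so the sorts of 1 mouse differ in sign.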

How the results depend on the processing

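In the 5 types and sorts compared, no ratio of member sums went below 1 under these alternatives, the lowest being 1.0004. Single Leiden clusters did, among them cluster 6 at 0.994 (0.966 to 1.02) in GMP libraries. This cluster holds many neutro-biased cells, but has 2 GMP and 0 neutro-bias markers among its leading genes. In Lin-/CD11b+ libraries the same cluster gave 0.915 (0.869 to 0.963), and HSPC clusters 2 and 10 gave 0.977 and 0.968. Of 910 values of single named members under an alternative, 76 had the other sign, and 17 of these lay outside the counting interval. In the other sort, on log2, HSPC-like cells gave Atp6ap2 -0.33 instead of 0.05, Ctsb 0.09 instead of -0.22, Ctsc -0.05 instead of 0.47 and Ctsz -0.14 instead of 0.16. Mono-biased cells gave Lamp1 0.25 instead of -0.25, Atp6v1f -0.01 instead of 0.15 and Atp6v1h 0.22 instead of -0.06. Neutro-biased cells gave Atp6v1e1 -0.12 instead of 0.04, Atp6v1g1 -0.06 instead of 0.08, Atp6v1h 0.39 instead of -0.30 and Ctsb -0.13 instead of 0.04. In neutrophil-like cells TMM and median-of-ratios factors gave Atp6v0e -0.02 and -0.05 instead of 0.20, Atp6v1f -0.05 and -0.07 instead of 0.18, and Atp6v1g1 -0.22 and -0.24 instead of 0.01. Other values that moved follow. The cause was not tested for any of them. No paired analysis was possible because each genotype and sort has 1 library and groups share fewer than 2 replicate numbers. Alternatives without Leiden cluster 13, with marker gate versions 1, 2 and 4, outside immunoglobulin genes and relative to the median of all genes were chosen after seeing the data. The dendritic-like class is given by Leiden cluster, since the gate held 45 WT cells.

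The ratio of member sums, Tet2 KO over WT, was 1.06 for mono-biased GMP-like cells. This became 1.08 with median-of-ratios size factors, 1.04 by Leiden clusters, 1.04 as a mean over cells, 1.02 with gate version 1, 1.03 with gate version 2 and 1.04 without the member with the largest difference (Ctsc). In neutro-biased GMP-like cells 1.03 became 1.08 with TMM factors, 1.08 with median-of-ratios size factors, 1.0004 by Leiden clusters, 1.0046 with gate version 1 and 1.01 with gate version 2. In monocyte-like cells 1.10 became 1.05 without cluster 13 and 1.06 without Ctsc. In neutrophil-like cells 1.23 became 1.05 with TMM factors, 1.04 with median-of-ratios size factors, 1.13 by Leiden clusters and 1.16 without cluster 13.

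Members past 1.5-fold higher in Tet2 KO numbered 1 in HSPC-like cells, against 2 by Leiden clusters, 2 in the other sort and 0 with gate version 1. In neutro-biased cells 1 became 2 in the other sort and 0 with an offset of 10 CPM. In monocyte-like cells 1 became 2 by Leiden clusters and 2 as a mean over cells. In neutrophil-like cells 4 became 7 without the highest 5% of Scrublet scores. Members lower in mono-biased cells numbered 0, against 2 by Leiden clusters, 1 without cells with 5% or more mitochondrial counts and 1 with gate version 1. For neutrophil-like over HSPC-like cells in WT, 3 members past 2-fold higher became 8 in the Tet2 KO libraries and 17 relative to the median of all genes. The 1 lower became 2 in Tet2 KO, 2 with gate version 1, 0 with an offset of 10 CPM and 0 relative to that median.

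Sums by type in HSPC-like cells of the GMP sort were 2186.5 CPM in WT as a mean over cells and 2020.4 CPM by Leiden clusters, and 2268.8 and 2065.3 CPM in Tet2 KO. Mono-biased WT cells of the GMP sort had 3062.5 CPM as a mean over cells and 3043 CPM without the highest Scrublet scores. Neutro-biased Tet2 KO cells of the GMP sort had 2499.6 CPM by Leiden clusters. Monocyte-like cells had 5160.3 CPM in WT as a mean over cells, and in Tet2 KO 5753 CPM as a mean over cells, 5583 CPM by Leiden clusters and 5573 CPM without the highest Scrublet scores. Neutrophil-like cells had 2275.5 CPM in WT without the highest Scrublet scores, and in Tet2 KO 2897.6 CPM as a mean over cells, 2702 CPM by Leiden clusters and 2798 CPM without the highest Scrublet scores. Plasma-like cells had 1179 CPM in WT and 1654 CPM in Tet2 KO. These became 3667.9 and 4246.0 CPM outside immunoglobulin genes, 1236.5 and 1755.7 CPM by Leiden clusters and 1075.1 and 1430.5 CPM without the highest Scrublet scores, and in Tet2 KO 1541.8 CPM as a mean over cells.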

Other observations

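Ctss was 14.9% of the member sum of plasma-like cells in WT and 19.8% in Tet2 KO.

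In the Tet2 KO dendritic-like gate (210 cells) Ctss was at 846.5 CPM, Ctsh at 482 CPM, Ctsz at 460.4 CPM and Ctsc at 206 CPM. Monocyte-like cells of that library had 593, 350, 439 and 530 CPM in the same order. The WT gate held too few cells for a comparison.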
